A study of Mus musculus with 4 samples.

Results

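Gli1, Gli2 and Gli3 encode the zinc-finger transcription factors at the end of the Hedgehog pathway, and the ATAC-seq peaks around these 3 genes were compared between adipose progenitors of visceral and subcutaneous mouse fat. The genes were followed in 3 windows on mouse build mm9, which were set by genome position. Genes and windows were chosen with earlier results of these data known. The Gli1 window spans 100 kb on chromosome 10 from 126720000 to 126820000, the Gli2 window 340 kb on chromosome 1 from 120680000 to 121020000, and the Gli3 window 420 kb on chromosome 13 from 15480000 to 15900000. The windows held 204 peaks of the 4 deposited lists. These fell into 84 of the 83319 regions that were obtained when overlapping peaks of all lists were merged, with 17 regions at Gli1, 35 at Gli2 and 32 at Gli3.

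Progenitors are the mesenchymal precursors of adipocytes, and in this study they were taken fresh, without treatment, from C57BL/6 mice aged 16 weeks. In ATAC-seq a transposase cuts accessible DNA, so that clusters of reads, called peaks, mark open chromatin. There were 2 libraries from visceral fat (VAT 1 and VAT 2) and 2 from subcutaneous fat (SAT 1 and SAT 2). The labels do not say which visceral depot was used, how the progenitors were purified, or whether libraries came from separate mice, so a spread between libraries of a depot may be technical.

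Hedgehog ligands act by relieving the block that the receptor Patched puts on Smoothened. Without ligand, Gli3 and to a lesser degree Gli2 are cut into repressors. With ligand, full-length Gli2 is the main activator, and Gli1, an activator only, is itself switched on as a target gene, which is why its expression is read as a sign of pathway activity. In fat, Hedgehog signalling is known to restrain the differentiation of white adipocytes, and Gli1 marks mesenchymal cells beside blood vessels in many organs.

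Each Gli gene has a gene for an inhibin beta subunit, which builds activins and inhibins, as its next protein-coding gene on one side. In the RefSeq gene order of assembly GRCm38.p6, Gli1 stands between Arhgap9 and the pair Inhbe and Inhbc, Gli2 between Tfcp2l1 and Inhbb, and Gli3 between AW209491 and Inhba. No mm9 annotation was used here, so no peak is assigned to an exon, an intron or a promoter, and a peak in a window may belong to a neighbouring gene. For the same reason peaks at markers of progenitors and of other cell types, and at other genes of the Hedgehog pathway, were not analysed here.

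The promoters of 2 of the 3 genes were at hand in a RefSeq table of build GRCm38.p6. They are shown because the start site is the regulatory stretch through which each gene is read, and capitals mark every CpG. The Gli2 stretch lies on the minus strand at chr1:119053570-119053869 and the Gli3 stretch on the plus strand at chr13:15463473-15463772. These positions are of GRCm38.p6 and are not comparable with the mm9 positions of the peaks, so whether a peak covers either stretch was not tested.
Gli2: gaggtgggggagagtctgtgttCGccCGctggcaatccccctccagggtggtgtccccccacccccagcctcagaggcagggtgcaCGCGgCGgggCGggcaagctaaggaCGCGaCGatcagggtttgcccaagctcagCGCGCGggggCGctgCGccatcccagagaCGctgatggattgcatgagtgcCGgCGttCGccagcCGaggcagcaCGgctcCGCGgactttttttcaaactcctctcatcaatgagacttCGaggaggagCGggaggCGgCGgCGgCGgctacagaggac
Gli3: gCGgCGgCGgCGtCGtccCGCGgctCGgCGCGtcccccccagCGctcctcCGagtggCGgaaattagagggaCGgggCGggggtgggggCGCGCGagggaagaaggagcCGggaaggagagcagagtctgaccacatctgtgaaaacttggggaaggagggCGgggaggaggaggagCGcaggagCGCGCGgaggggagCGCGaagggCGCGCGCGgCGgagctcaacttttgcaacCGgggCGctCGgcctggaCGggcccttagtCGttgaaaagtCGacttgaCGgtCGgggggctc

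Both promoters are rich in CpG. The 300 bases of Gli2 hold 28 CpG, more than 85.8% of the 32851 promoters in the table, and those of Gli3 hold 39, more than 95.6% of them. The median promoter holds 7. The share of G and C is 67.3% at Gli2 and 71.0% at Gli3, against a median of 52.7%. The letters GACCACCCA, a core sequence that Gli proteins bind, were searched on both strands and occur in neither stretch, as in most promoters, since 0.253% of the table's promoters hold them.

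The lists differ in length, which bears on every value that follows. They held 56907 peaks in VAT 1, 62279 in VAT 2, 56823 in SAT 1 and 22845 in SAT 2. With no read counts in the lists the depth is unknown, and the absence of a peak is no evidence of closed chromatin. The authors' peak score has no stated scale, so it is given as a percentile within its own list, where 50 is the middle of the list and 100 its top. Among VAT 1, VAT 2 and SAT 1, the lists did not group by their depot labels. The bases covered by peaks in the 3 windows were shared most between VAT 1 and SAT 1, with a Jaccard index (shared over joint bases) of 0.567, against 0.486 for VAT 1 and VAT 2 and 0.290 for SAT 1 and SAT 2. The same order held over the genome, at 0.605, 0.506 and 0.328. SAT 2 shared most with SAT 1, at 0.290 against 0.268 with VAT 1 and 0.245 with VAT 2. Over the genome these values were 0.328, 0.322 and 0.301, and the shortness of the SAT 2 list caps them all. Results are therefore given per library, and also without SAT 2 where it alters them. In bulk chromatin, fewer cells with an open site and a less open site in each cell cannot be told apart.

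All 3 windows were denser in peaks than their chromosomes in every library, and the Gli1 window was the densest. Per 100 kb, the Gli1 window held 13.0 peaks in VAT 1, 13.0 in VAT 2, 15.0 in SAT 1 and 6.00 in SAT 2. Chromosome 10 as a whole held 2.50, 2.68, 2.50 and 0.947 peaks per 100 kb in the same libraries, so the window was 4.85 to 6.34 times as dense. The Gli2 window held 6.76, 9.12, 6.18 and 2.65 peaks per 100 kb in VAT 1, VAT 2, SAT 1 and SAT 2, which is 2.99 to 4.05 times the density of chromosome 1. The Gli3 window held 4.76, 5.48, 5.48 and 1.67 in the same order, 2.09 to 2.45 times the density of chromosome 13. Regions at Gli1 also stood close together: 8 of its 16 pairs of neighbouring regions lay less than 2 kb apart, against 6 of 34 at Gli2 and 6 of 31 at Gli3. The windows were placed around genes, so these ratios describe the loci and were not tested against other genes.

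**Figure D1:**
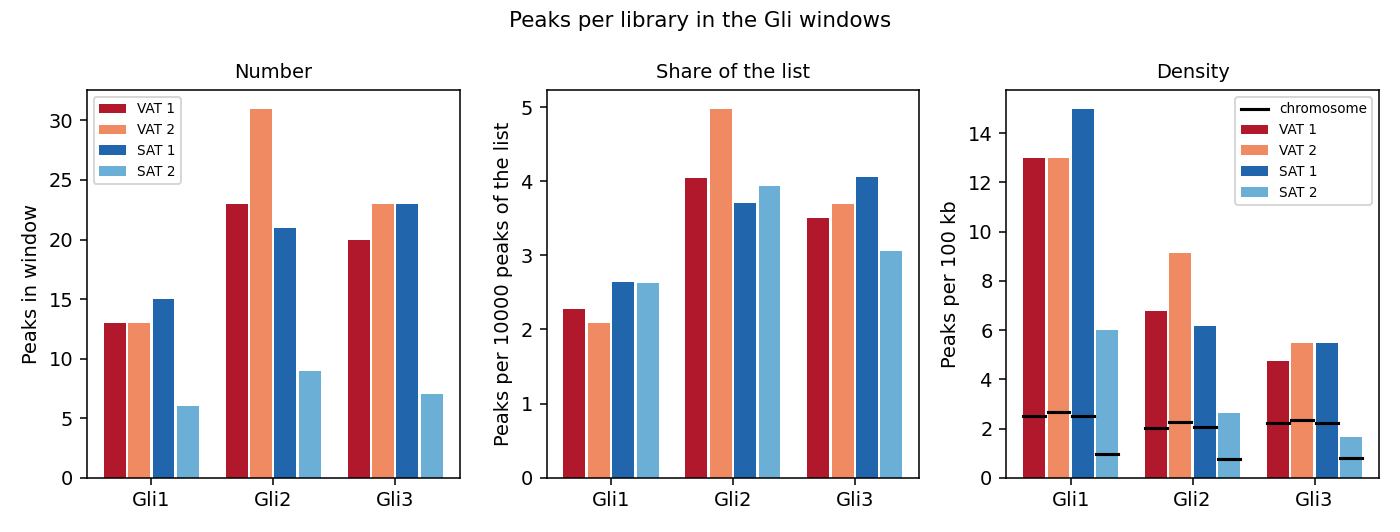
Peaks in the 3 windows by library, as a number (left), per 10000 peaks of the library's list (middle) and per 100 kb (right, with black lines for the library's density over the whole chromosome). VAT 2 has the most peaks at Gli2 (31), SAT 2 has the fewest in each window (6, 9 and 7), and every bar on the right stands above its black line.

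The depots were compared by the number of peaks in each window and by the share of each list that lay there. A two-sided exact permutation test over 2 libraries against 2 cannot go below p = 0.333, so none of these differences could pass a threshold of 0.05.

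At Gli1, the target gene and activator, VAT 1 and VAT 2 had 13 peaks each, against 15 in SAT 1 and 6 in SAT 2. The depots overlapped, with a difference in means of 2.50 peaks (13.0 ± 0 in VAT and 10.5 ± 6.36 in SAT, SD, n = 2 each; exact permutation p = 1). Without SAT 2 the difference was -2. As a share of the full list, Gli1 had 2.28 and 2.09 peaks per 10000 in VAT 1 and VAT 2, against 2.64 and 2.63 in SAT 1 and SAT 2. The visceral values were the lower ones and the depots did not overlap by this measure (difference -0.447, exact permutation p = 0.333, the smallest possible). It rests on few peaks: with 5 instead of 6, SAT 2 would stand at 2.19 per 10000, between the visceral values. The direction turned when all lists were reduced to the 22845 highest-scoring peaks, the length of the SAT 2 list. Gli1 then had 5 and 7 peaks in VAT 1 and VAT 2, against 5 and 6 in SAT 1 and SAT 2, and the depots overlapped (difference 0.5 peaks, or 0.219 per 10000).

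At Gli2, the main activator, both visceral libraries had more peaks than both subcutaneous ones. VAT 1 had 23 and VAT 2 had 31 peaks, against 21 in SAT 1 and 9 in SAT 2. The means were 27.0 ± 5.66 in VAT and 15.0 ± 8.49 in SAT (SD, n = 2 each), a difference of 12.0 peaks (exact permutation p = 0.333, the smallest possible). Without SAT 2 it was 6.00. The share of the list followed the same order, with 4.04 and 4.98 peaks per 10000 in VAT 1 and VAT 2, against 3.70 and 3.94 in SAT 1 and SAT 2 (difference 0.692, p = 0.333 by the same exact test). VAT 1 and SAT 2 were close on this scale, and without VAT 2 the difference was 0.224. With all lists reduced to that length, Gli2 had 8 and 9 peaks in VAT 1 and VAT 2, against 6 and 9 in SAT 1 and SAT 2, and the depots overlapped.

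At Gli3, the main repressor, the depots overlapped by both measures. VAT 1 had 20 and VAT 2 had 23 peaks, against 23 in SAT 1 and 7 in SAT 2 (difference 6.50, exact permutation p = 1). Per 10000 peaks of the list the values were 3.51 and 3.69 in VAT 1 and VAT 2, against 4.05 and 3.06 in SAT 1 and SAT 2 (difference 0.0479, exact permutation p = 1). The difference in number was -1.50 without SAT 2 and -1 with lists of equal length, and that per 10000 peaks was -0.444 without SAT 2, -0.0414 without VAT 2 and -0.438 with lists of equal length.

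**Figure D2:**
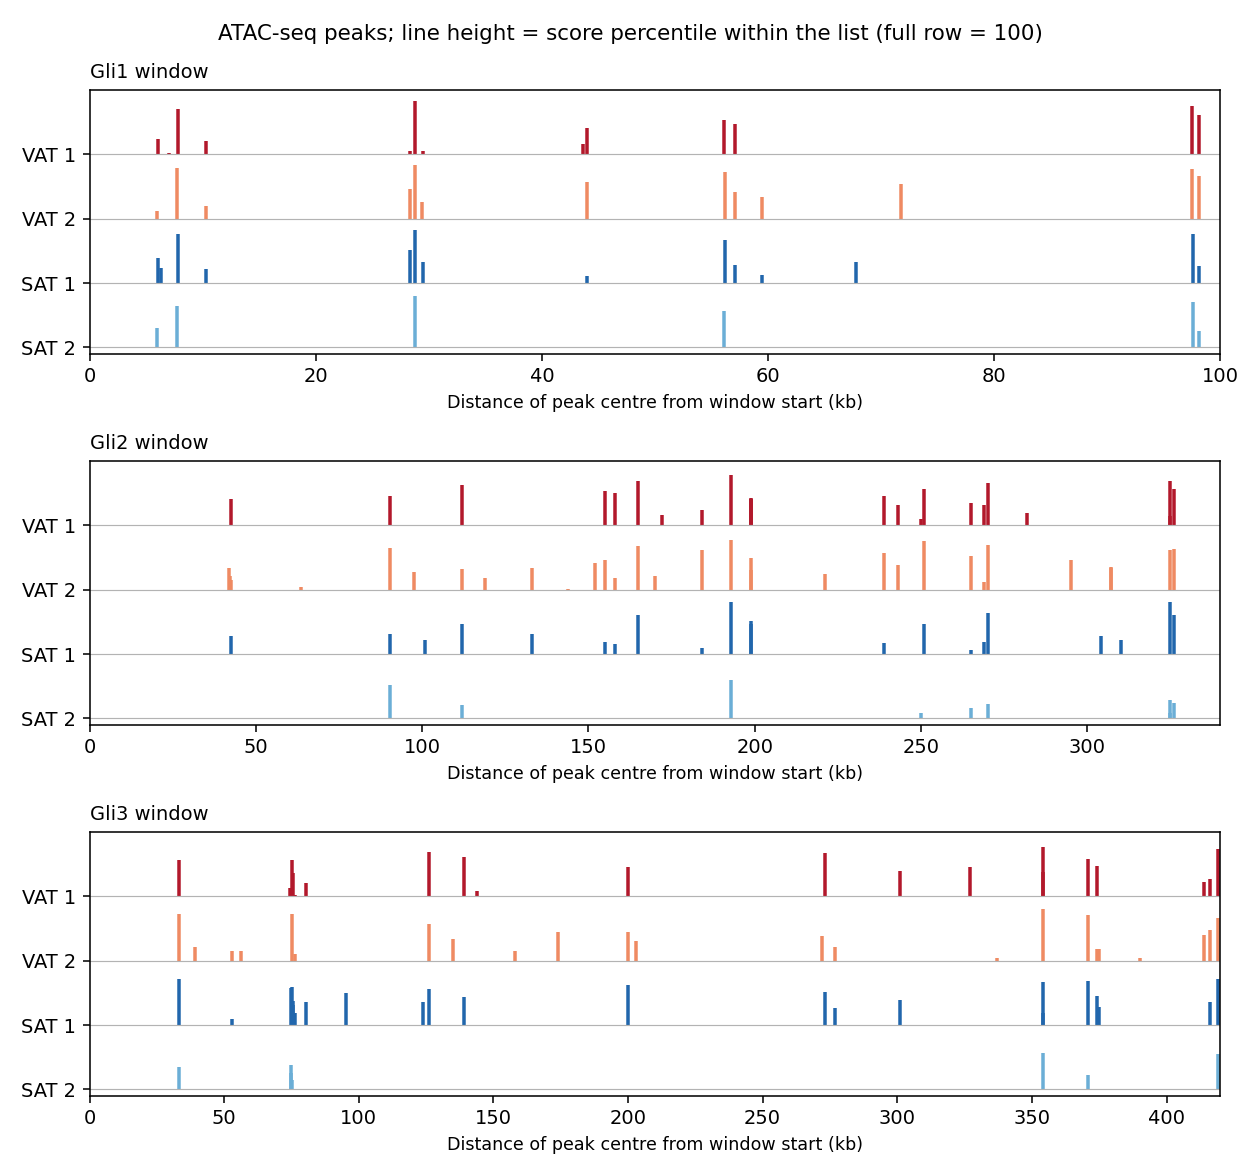
Position of every peak in the 3 windows, in kb from the window's start, with 1 row per library. The height of a line is the peak's score percentile within its list, and a height equal to the full row would be 100. The tallest line stands at the same distance in all 4 rows at Gli1 (28.8 kb) and at Gli2 (193 kb). At Gli3 it stands at 354 kb in every row except SAT 1, where it stands at 419 kb. Many short lines stand in 1 row alone.

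How the peaks of the 4 libraries coincided was then asked for the merged regions. A peak in all 4 lists was found in 19 of the 84 regions (22.6%), against 23.2% of all regions of the genome. The share was 6 of 17 (35.3%) at Gli1, 8 of 35 (22.9%) at Gli2 and 5 of 32 (15.6%) at Gli3. The 95% Clopper-Pearson intervals, for counting error alone, were 14.2% to 61.7%, 10.4% to 40.1% and 5.28% to 32.8%, so they overlap one another and each contains the genome's share. Another 20 regions (23.8%) lacked a peak in SAT 2 alone, against 19.5% in the genome. Without SAT 2, a peak in each of the remaining libraries was thus found in 11 regions at Gli1, 17 at Gli2 and 11 at Gli3. In the genome the corresponding number rose from 19350 to 35569, so such a rise is not particular to the windows. Peaks of a single library made up 33 regions (39.3%), against 36.4% in the genome.

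SAT 2 added no region of its own. Its 22 peaks in the windows lay in the 19 regions that also had a peak in VAT 1, VAT 2 and SAT 1. In the genome 90.7% of the 21340 regions with a SAT 2 peak were of this kind. The regions of a single library belonged to VAT 2 in 20 cases, to VAT 1 in 6 and to SAT 1 in 7. Of all regions in the windows these were 23.8%, 7.14% and 8.33%, against 19.6%, 8.58% and 7.84% in the genome. The single-library regions were weak and narrow, with a median percentile of 28.3. Their median width was 120 bp, against 469 bp for the 19 regions found in all libraries. The corresponding values for the genome were 21.0, 130 bp and 524 bp.

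The longest stretches without a peak differed most at Gli3. There SAT 2 had no peak over 278 kb, from 15555257 to 15833685, where VAT 1 and VAT 2 had 10 peaks each and SAT 1 had 12. The longest such stretches of the other libraries at Gli3 were 72.0 kb in VAT 1, 69.3 kb in VAT 2 and 72.0 kb in SAT 1, and all of these ended at the region from 15752323 to 15752614. At Gli2 the longest stretch was 80.9 kb in SAT 2, against 47.4 kb in VAT 1, 26.5 kb in VAT 2 and 47.7 kb in SAT 1. The shortness of the SAT 2 list moves with these stretches, and its part in them was not tested.

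**Figure D3:**
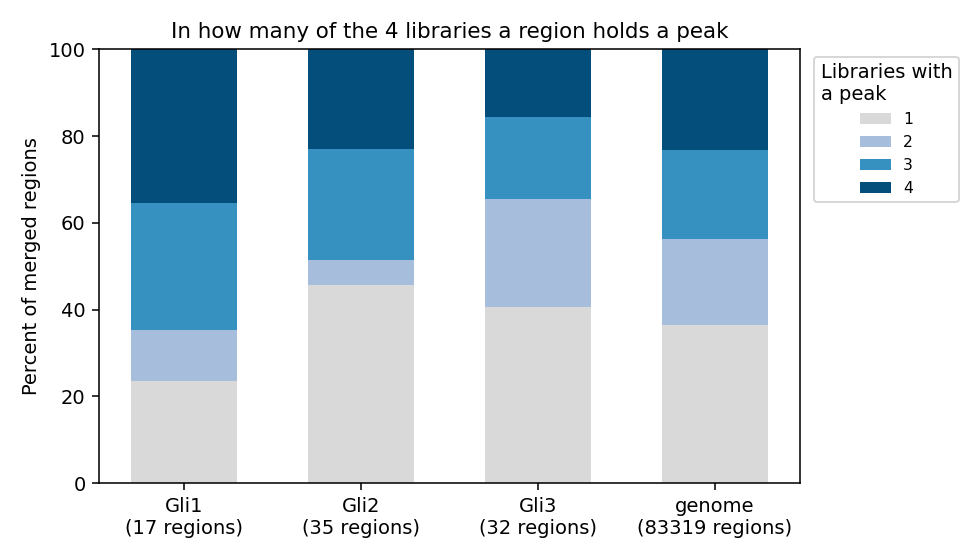
Share of merged regions, in percent, with a peak in 1, 2, 3 or 4 libraries, for the 3 windows and the genome. Regions in all 4 libraries take 35.3% at Gli1, 22.9% at Gli2 and 15.6% at Gli3, against 23.2% in the genome.

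Regions restricted to a depot were few. A peak in VAT 1 and VAT 2 and in neither subcutaneous list was found in 2 of the 84 regions (2.38%), against 4.60% of all regions of the genome, and a peak in SAT 1 and SAT 2 and in neither visceral list in 0 of 84, against 0.110%. A count of 0 allows a share of up to 3.57%. The visceral-restricted regions were 1 at Gli2, on chromosome 1 from 120922388 to 120922932, and 1 at Gli3, on chromosome 13 from 15894349 to 15894511. The Gli2 region had percentiles of 37.9 in VAT 1 and 45.3 in VAT 2, with peaks that overlapped only in part, over a region of 545 bp. The Gli3 region had percentiles of 26.6 in VAT 1 and 47.1 in VAT 2. All of these peaks ranked below the middle of their lists, and with lists of equal length 0 of 31 regions in the windows were restricted to either depot, which allows a share of up to 9.68% for each. At that length the shares in the genome were 1.81% visceral-restricted and 1.5% subcutaneous-restricted, of 34383 regions. With only the top 50% of each list by score, 3 of 39 regions were visceral-restricted (7.69%, against 4.72% in the genome) and 0 subcutaneous-restricted (against 0.179%). When 1 library stood for its depot, the rule was looser. The visceral count was then 23 without VAT 1, 9 without VAT 2, 22 without SAT 1 and 2 without SAT 2. The subcutaneous count was 7 without SAT 2 and 0 without each of the others. The genome's shares under this rule are not given here, so these counts are not set against a background.

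Regions shared only by the replicate 1 libraries, VAT 1 and SAT 1, numbered 5 (5.95%, against 9.37% in the genome), and 4 of them lay at Gli3. The strongest of these, on chromosome 13 from 15618568 to 15618835, had percentiles of 71.6 in VAT 1 and 50.6 in SAT 1. The other 3 at Gli3 lay at 15780500 to 15780756, 15560247 to 15560487 and 15834154 to 15834442, with the weaker peak at percentiles of 45.2, 24.1 and 21.5. The 1 at Gli1, at 126763600 to 126763726, had 19.2 in VAT 1 and 0.707 in SAT 1, near the bottom of the SAT 1 list. Regions shared only by VAT 2 and SAT 2 numbered 0, against 0.652% in the genome. Those shared only by VAT 2 and SAT 1 numbered 5 (5.95%, against 4.93%).

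The strongest open regions of each window were common to both depots. They are numbered here along each window. At Gli1 the leading region was region 7, on chromosome 10 from 126748585 to 126749018, with percentiles of 97.3 in VAT 1, 98.2 in VAT 2, 97.5 in SAT 1 and 94.0 in SAT 2. Its scores were 445, 503, 410 and 241 in the same libraries. It held the highest peak of the window in every library, and its libraries lay within 5 percentile points.

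Of the next regions at Gli1, regions 16, 4 and 11 ranked above the middle of the list in every library. Region 16, from 126817316 to 126817749, had percentiles of 88.7 and 91.7 in VAT 1 and VAT 2, against 89.0 and 83.2 in SAT 1 and SAT 2. Region 4, from 126727505 to 126728016, had 83.2 and 92.0 in VAT 1 and VAT 2, against 90.0 and 75.5 in SAT 1 and SAT 2. Region 11, from 126776010 to 126776445, had 62.6 and 85.9 in VAT 1 and VAT 2, against 78.4 and 65.8 in SAT 1 and SAT 2. In these regions the depots overlapped. Region 17, from 126817840 to 126818308, was different, with 71.3 and 77.9 in VAT 1 and VAT 2, against 30.9 and 30.2 in SAT 1 and SAT 2. It lies directly beside region 16, in which the depots overlapped.

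At Gli2 the leading region was region 18, on chromosome 1 from 120873066 to 120873596. Its percentiles were 91.3 and 90.8 in VAT 1 and VAT 2, against 95.7 and 70.8 in SAT 1 and SAT 2, and it held the highest Gli2 peak of each library. Region 34, from 121004699 to 121005003, was uneven within depots, with 81.2 and 72.2 in VAT 1 and VAT 2, against 94.7 and 34.5 in SAT 1 and SAT 2. Its neighbour, region 35, from 121005212 to 121005947, was the widest at Gli2 (736 bp) and had 67.0 and 74.4 in VAT 1 and VAT 2, against 70.7 and 27.4 in SAT 1 and SAT 2. In all of these SAT 2 was the lowest and the other libraries lay closer together.

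Region 4 at Gli2, from 120770149 to 120770595, was 1 of the 2 regions among the 19 in which SAT 2 ranked above SAT 1. It had 54.6 and 75.7 in VAT 1 and VAT 2, against 36.5 and 60.3 in SAT 1 and SAT 2. Region 27, from 120949949 to 120950495, had 77.5 and 81.9 in VAT 1 and VAT 2, against 75.4 and 26.3 in SAT 1 and SAT 2. Here the depots did not overlap, although VAT 1 and SAT 1 were close.

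At Gli3 the leading region was region 24, on chromosome 13 from 15833520 to 15833950. Its percentiles were 89.7 and 94.3 in VAT 1 and VAT 2, against 79.6 and 66.7 in SAT 1 and SAT 2, so both visceral values stood above both subcutaneous ones. It held the highest Gli3 peak of every library except SAT 1. The highest of SAT 1 was region 32, from 15898611 to 15899126, with 86.1 and 78.2 in VAT 1 and VAT 2, against 85.0 and 65.4 in SAT 1 and SAT 2.

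Region 6 at Gli3, from 15554570 to 15555815, was the widest of the 84 regions, at 1246 bp. VAT 2 had 1 peak of 1200 bp there, while VAT 1 had 2 peaks, SAT 1 had 4 and SAT 2 had 3. The peaks covered 1091 bp in VAT 1, 1200 bp in VAT 2, 940 bp in SAT 1 and 379 bp in SAT 2. Its percentiles were 66.4 and 84.9 in VAT 1 and VAT 2, against 70.3 and 45.1 in SAT 1 and SAT 2. The open stretch was long in every library except SAT 2 and was split into different numbers of peaks. Region 1, from 15513068 to 15513550, had 66.4 and 84.7 in VAT 1 and VAT 2, against 83.9 and 40.7 in SAT 1 and SAT 2. Region 26, from 15850877 to 15851382, had 69.0 and 83.1 in VAT 1 and VAT 2, against 80.5 and 26.9 in SAT 1 and SAT 2.

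**Figure D4:**
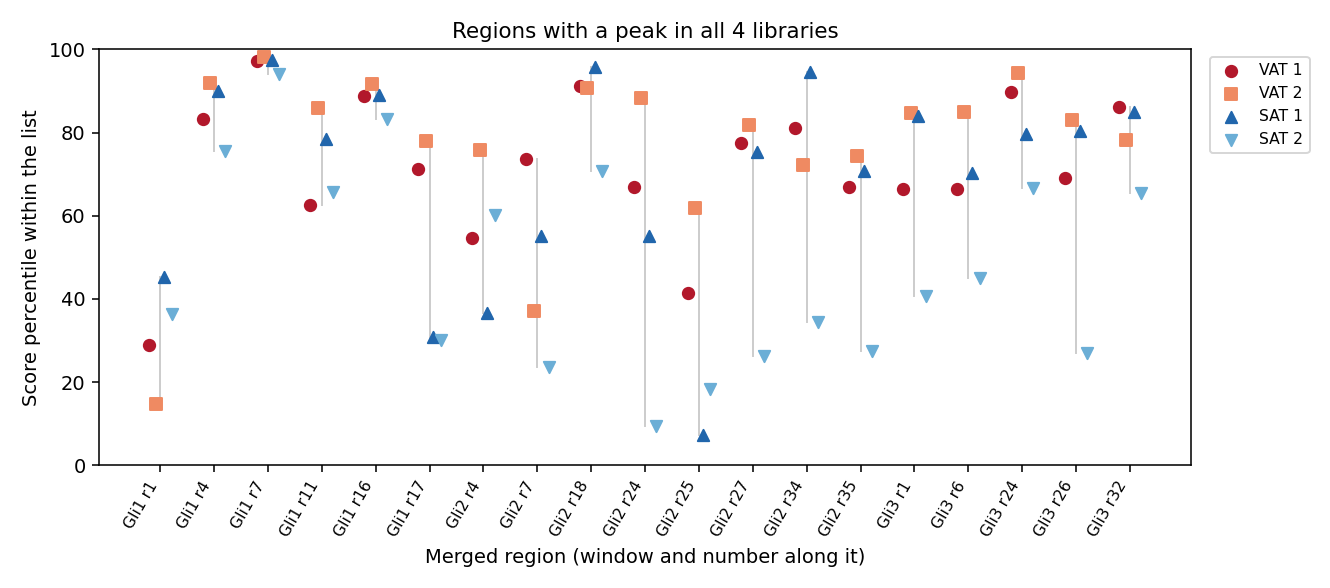
Score percentile within the list, for each of the 19 regions with a peak in all 4 libraries, named by window and number along it. Points stand for libraries and grey lines span them. With these full lists, SAT 2 is the lowest point in 15 of 19 regions and VAT 2 the highest in 14.

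Over the 19 regions, the depots did not overlap in 6. Both visceral percentiles were higher than both subcutaneous ones in 5 (26.3%), against 32.7% of the 19350 regions of this kind in the genome. Both subcutaneous percentiles were higher in 1 (5.26%), against 2.98%. Leaving out 1 library loosens the rule, since the other library then stands alone for its depot. Without VAT 1, visceral values were higher in 14 of 19 regions (73.7%, against 57.5% in the genome), and without SAT 1 in 16 of 19 (84.2%, against 80.2%). Subcutaneous values were higher in 2 of 19 without VAT 2 (10.5%, against 11.5%). Without SAT 2, 39 regions had a peak in all 3 remaining lists. Both visceral values were higher than that of SAT 1 in 14 of these (35.9%, against 34.6%), and both were lower in 9 (23.1%, against 28.6%). The shares with all libraries were near those for the genome, where the shorter list of SAT 2 moves with the result: regions in all lists had a median percentile of 55.6 in SAT 2 but of 80.3 in VAT 1, 83.5 in VAT 2 and 80.4 in SAT 1.

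The 5 regions with visceral percentiles above subcutaneous ones were region 17 at Gli1, region 24 at Gli3, and regions 24, 25 and 27 at Gli2. Region 24 at Gli2, from 120930278 to 120930876, had 67.0 and 88.3 in VAT 1 and VAT 2, against 55.2 and 9.55 in SAT 1 and SAT 2. Region 25 at Gli2, from 120944589 to 120944781, had 41.4 and 61.8 in VAT 1 and VAT 2, against 7.20 and 18.4 in SAT 1 and SAT 2. The 1 region with the opposite order was region 1 at Gli1, from 126725895 to 126726122, with 29.0 and 14.7 in VAT 1 and VAT 2, against 45.2 and 36.3 in SAT 1 and SAT 2. These last 3 regions were named after their values were seen, and no single region can go below p = 0.333 in an exact test over 4 libraries.

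With lists of equal length, the difference in list length is removed from the percentiles. Of the 6 regions, 2 then still had a peak in all 4 libraries. Region 27 at Gli2 had 43.9 and 50.6 in VAT 1 and VAT 2, against 38.8 and 26.3 in SAT 1 and SAT 2. Region 24 at Gli3 had 74.3 and 84.5 in VAT 1 and VAT 2, against 49.2 and 66.7 in SAT 1 and SAT 2. Both kept visceral values above subcutaneous ones, and they were 2 of 13 regions in the windows (15.4%), against 15.8% in the genome. The opposite order was found in 0 of the 13, which allows a share of up to 23.1%, against 15.0% in the genome. The others of the 6 all lost their SAT 1 peak. Region 17 at Gli1 had 28.4 and 39.8 in VAT 1 and VAT 2, with SAT 2 between them at 30.2. Region 24 at Gli2 had 17.9 and 68.1 in VAT 1 and VAT 2, against 9.55 in SAT 2. Region 25 at Gli2 and region 1 at Gli1 kept a peak in SAT 2 alone, at 18.4 and 36.3. Region 7 at Gli1 had 93.2 and 95 in VAT 1 and VAT 2, against 93.8 and 94.0 in SAT 1 and SAT 2, less than 2 percentile points apart.

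With the full lists, VAT 2, whose list is the longest, had the highest percentile in 14 of the 19 common regions of the windows (73.7%), against 44.5% in the genome. VAT 1, from the same depot, was highest in 2 (10.5%, against 25.3%), SAT 1 in 3 (15.8%, against 26.1%) and SAT 2 in 0 (against 4.16%). SAT 2, whose list is the shortest, was lowest in 15 (78.9%, against 75.4%). VAT 2 was highest in 5 of 6 regions at Gli1, 5 of 8 at Gli2 and 4 of 5 at Gli3. With lists of equal length, a comparison added after seeing the data, 13 regions of the windows had a peak in every library. VAT 2 was then highest in 7 of 13 regions (53.8%, against 26.3% in the genome). VAT 1 was highest in 1 (7.69%, against 22.4%), SAT 1 in 3 (23.1%, against 22.9%) and SAT 2 in 2 (15.4%, against 28.4%). SAT 2 was lowest in 2 of 13 (15.4%, against 27.1%), and VAT 1 was the lowest library in 8 (61.5%, against 25.8%).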

How the data were processed

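ATAC-seq libraries of adipose progenitors, 2 visceral and 2 subcutaneous, were grouped by their titles. Per the submitters' processing notes, the authors used Bowtie2 and MACS2 on mm9; no source used here gives versions, options or filters. Peaks were called per library, and column 5 of a deposited list holds the authors' score, a whole number of 20 or more with no stated scale. It was used only as a percentile within a list (ties counted by their mid-rank).

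Peaks overlapping by at least 1 bp were merged over the genome, and regions overlapping the windows were taken. A library's percentile in a region is that of its highest peak there. Chromosome densities use the span from the first to the last peak. Named regions were, per window, the 5 common regions with the highest weakest percentile, each library's highest peak, and up to 5 regions restricted to a depot or a replicate number; the members, windows and lists were chosen with earlier results of these data known. Interval code was tested on simulated lists and gave the same merged regions as bedtools 2.31.1. Python 3.11.15, numpy 2.4.6 and matplotlib 3.10.9 were used. Alternatives were lists of equal length, the top 50% of each list, other rules for shared peaks, wider windows, each library left out and a replicate block.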

Additional observations from a re-analysis of the deposited data

How the results depend on the processing

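The numbers rest on few peaks, on lists of unknown depth and on 2 libraries per depot. The difference in peak number between VAT and SAT kept its sign at Gli2 in every setting run, and at Gli1 in all but 1, without SAT 2 (-2). At Gli3 it was -1 with lists of equal length and -1.50 without SAT 2. The difference per 10000 peaks kept its sign at Gli2 in every setting run. With lists of equal length, a setting added after seeing the data, it was 0.219 at Gli1 and -0.438 at Gli3, and at Gli3 it was also -0.0414 without VAT 2 and -0.444 without SAT 2. Leaving out each library in turn gave -2 to 7 peaks at Gli1, 6.00 to 18.0 at Gli2 and -1.50 to 14.5 at Gli3, and per 10000 peaks -0.546 to -0.349, 0.224 to 1.16 and -0.444 to 0.540. Peaks assigned by their centre gave the same values.

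Regions in all libraries numbered 6 to 11 at Gli1, 8 to 17 at Gli2 and 5 to 11 at Gli3 when 1 library was left out, the higher values being without SAT 2. Over the genome, regions in all libraries numbered 35569 without SAT 2, against 19350 with it. At Gli1 they were 10 in the window widened by 50 kb. At Gli2 they were 4 with lists of equal length, 1 in the top 50% and 5 with 50% reciprocal overlap, and at Gli3 they were 2 in the top 50% and 3 with reciprocal overlap. Visceral-restricted regions numbered 0 with lists of equal length, 1 with 200 bp around each centre and 2 to 23 with 1 library left out. They numbered 3 in the widened windows and 3 of 39 in the top 50% (7.69%, against 4.72% in the genome). Subcutaneous-restricted ones numbered 1 with reciprocal overlap, 1 with 200 bp around each centre and 0 to 7 with 1 library left out. They numbered 0 in the widened windows and 0 in the top 50%, against 0.179% in the genome. Restriction is by construction easier when 1 library stands for a depot, and genome shares under that rule are not given here. Common regions with visceral percentiles above subcutaneous ones were a measure added after seeing the data. They numbered 2 of 13 with lists of equal length (15.4%, against 15.8% in the genome) and 1 of 7 in the top 50% (14.3%, against 32.6%). With 1 library left out they numbered 7 to 16, from 7 of 19 without VAT 2 (36.8%, against 45.0%) to 16 of 19 without SAT 1 (84.2%, against 80.2%). The opposite order was found in 0 of 13 (against 15.0%) and 0 of 7 (against 3.87%). With 1 library left out it was found in 1 to 9, the 9 being of 39 without SAT 2 (23.1%, against 28.6%).

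With replicate numbers as a block the differences were unchanged, 2.50 at Gli1, 12.0 at Gli2 and 6.50 at Gli3 (per 10000 peaks -0.447, 0.692 and 0.0479), with an exact sign-flip p of 0.5, the smallest possible, or more. The labels do not say that a number marks a shared animal or day. Over the 19350 common regions of the genome, the deviations of VAT 1 and SAT 1 from their depot means had r = 0.152.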
